A study of Mus musculus with 12 samples.

Results

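The genes described here are 9 genes used to recognise tuft cells, namely Dclk1, Trpm5, Pou2f3, Il25, Avil, Gfi1b, Sh2d6, Gng13 and Alox5. They were taken by name, after the Ensembl identifiers of the count table had been paired with symbols in the GENCODE M21 annotation, and all 9 were found among the 54109 genes listed. RNA had been sequenced from mice with acute colitis caused by dextran sulfate sodium (DSS), a polymer that injures the colonic epithelium, and every group had received it. Wild-type (WT) mice were compared with Gpr15l-/- (KO) mice, which lack a secreted protein that binds Gpr15, a homing receptor of T cells. The material was either full colon or LPMC, which usually stands for lamina propria mononuclear cells, the leukocytes released from the gut wall. Each genotype had 3 libraries of each material, which gives 4 groups and 12 libraries. The labels give no strain, age or length of treatment, and no untreated group was analysed here. Nor do they state that each library is a different mouse, and the p-values therefore cover the variation among these libraries, some of which may be technical.

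Tuft cells are rare chemosensory cells of the epithelium. They sense contents of the gut lumen through a cascade shared with taste cells, in which a G protein and phospholipase C open the cation channel Trpm5. On activation they release the cytokine IL-25 and, by way of the 5-lipoxygenase Alox5, leukotrienes. These act on group 2 innate lymphoid cells of the lamina propria, whose IL-13 in turn drives the epithelium to make more tuft and goblet cells. The transcription factor Pou2f3 is required for the lineage.

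Total counts ran from 45.4 to 140.7 M (1 M is 1000000) per library. Reads of the deleted gene, annotated as 2610528A11Rik, lay between 291.4 and 969.9 CPM in the WT libraries and between 0.0291 and 0.228 CPM in the KO libraries. CPM are counts per 1000000 counts of the library, scaled by the trimmed mean of M-values (TMM). The LPMC label was checked against cell type markers. The 8 epithelial markers together held 8846 to 12510 CPM in the LPMC libraries, against 15070 to 29300 CPM in colon, and none of them was at 0, so epithelial RNA was present in both materials. T cell markers summed to 21.4 to 87.3 CPM in LPMC and 2.12 to 13.8 CPM in colon. Mast cell markers summed to 97.8 to 182.8 CPM in LPMC and 16.3 to 29.6 CPM in colon, again without overlap. The monocyte and macrophage, neutrophil and B cell sums overlapped between materials. Monocyte and macrophage markers held 143.3 to 490.3 CPM in LPMC and 48.0 to 381.4 CPM in colon. Neutrophil markers held 59.6 to 573.5 CPM in LPMC and 260.0 to 774.5 CPM in colon. Fibroblast markers held 830.0 to 5084 CPM in LPMC and 213.8 to 999.3 CPM in colon, so the LPMC libraries did not hold leukocyte RNA alone. Within the colon, KO replicate 2 stood apart. It was the highest of the 6 colon libraries for 24.8% of 20989 genes and the lowest for 22.6%. Its epithelial marker sum (29300 CPM), smooth muscle sum (1951 CPM) and enteric neuron sum (169.0 CPM) were the highest of the 6, and its fibroblast (213.8 CPM), monocyte and macrophage (48.0 CPM) and neutrophil (260.0 CPM) sums the lowest. Results that rest on this library are given with and without it.

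The tuft cell genes were low in all libraries. Levels of different genes are compared per kilobase of exon, as mean CPM per kilobase. In colon WT, Avil was the most abundant at 3.86 ± 0.82 CPM per kilobase (SD, n = 3), followed by Sh2d6 at 0.651 ± 0.198, Dclk1 at 0.313 ± 0.085, Trpm5 at 0.192 ± 0.050 and Alox5 at 0.150 ± 0.019. Gfi1b (0.0441 ± 0.0258), Gng13 (0.0426 ± 0.0585), Pou2f3 (0.0347 ± 0.0092) and Il25 (0.0297 ± 0.0257) came last, on the same scale. The mean ± SD ranges of Dclk1 and Trpm5 overlapped, as did those of Trpm5 and Alox5 and those of the last 4, while the other neighbours in this order did not overlap. In LPMC WT the order was Avil (0.721 ± 0.114 CPM per kilobase), Dclk1 (0.461 ± 0.342), Alox5 (0.314 ± 0.063), Sh2d6 (0.276 ± 0.108), Trpm5 (0.155 ± 0.064), Gfi1b (0.116 ± 0.085), Pou2f3 (0.0837 ± 0.0307), Gng13 (0.0505 ± 0.0450) and Il25 (0.00632 ± 0.0109). In LPMC WT the mean ± SD ranges of all neighbours in this order overlapped. In bulk RNA, fewer tuft cells and less RNA per tuft cell cannot be told apart.

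**Figure D1:**
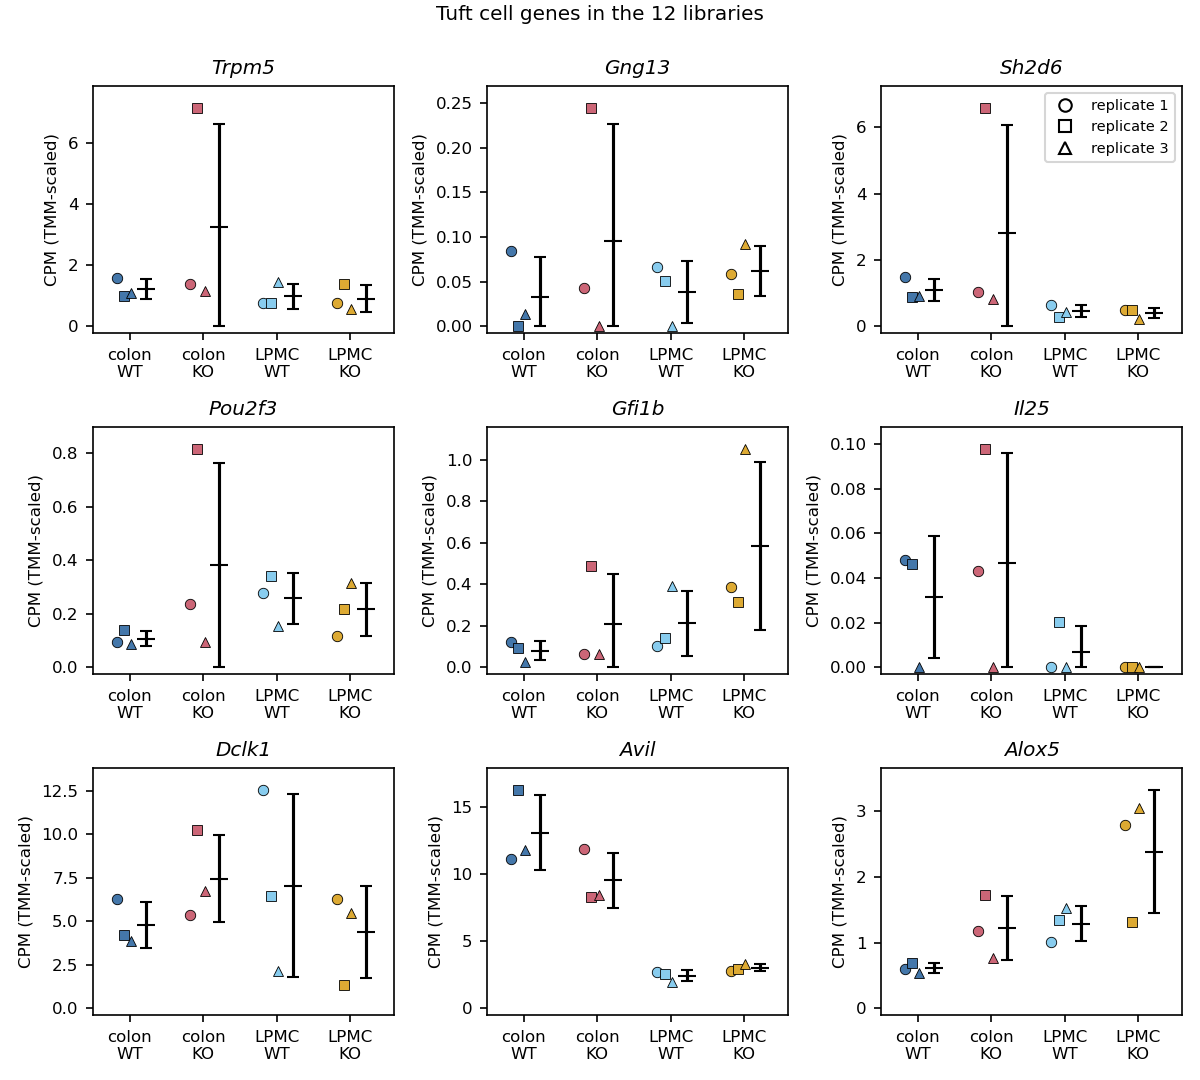
TMM-scaled CPM (linear axes, each panel with its own scale) of the 9 tuft cell genes in the 3 libraries of each group. Symbols give the replicate, and the black dash and bars give the mean and SD of 3 libraries, with lower bars stopped at 0. The colon KO replicate 2 square is the highest colon point in 8 panels, and 24.8% of 20989 genes were highest in that library. For Avil it is the lowest, just below KO replicate 3.

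The chemosensory genes are described first. Trpm5 (ENSMUSG00000009246) is a minus-strand gene (GRCm38 chromosome 7, 143069153 to 143094642) that encodes the cation channel at the end of the taste-type cascade. In colon WT it measured 1.59, 0.999 and 1.09 CPM, and in colon KO 1.39, 7.16 and 1.18 CPM. KO replicates 1 and 3 lay within the WT range, and replicate 2 stood at 6.08 times the median of the other 5 colon libraries. In LPMC WT it measured 0.753, 0.766 and 1.46 CPM, and in LPMC KO 0.778, 1.40 and 0.566 CPM, and these groups overlapped. Its annotated span overlaps that of Tssc4 on the opposite strand by 1845 bases. The strand setting of the counting is not given in the sources used here, so reads of the 2 genes could be mixed. Tssc4 itself measured 35.3 CPM in colon KO replicate 2, below the 37.6 to 78.4 CPM of the other colon libraries.

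Gng13 (ENSMUSG00000025739; chromosome 17, 25717171 to 25719406, plus strand) encodes the G protein gamma subunit of the same cascade. Its counts were 7, 0 and 1 in colon WT and 4, 15 and 0 in colon KO. In LPMC they were 7, 5 and 0 in WT and 8, 3 and 7 in KO. The highest library was again colon KO replicate 2, at 0.245 CPM. A count of 0 allows up to 3 counts, which is 0.0213 to 0.0661 CPM depending on the library. Most libraries were near that limit, and Gng13 shares 481 bases with Chtf18 on the other strand.

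Sh2d6 (ENSMUSG00000052631; chromosome 6, 72513641 to 72521707, minus strand) encodes an SH2-domain adaptor that marks tuft cells. It measured 1.49, 0.883 and 0.931 CPM in colon WT and 1.04, 6.59 and 0.837 CPM in colon KO. The pattern was that of Trpm5, with KO replicate 2 at 7.08 times the median of the other colon libraries and the remaining 5 between 0.837 and 1.49 CPM. The LPMC values were 0.657, 0.292 and 0.449 CPM in WT, and in KO 0.487, 0.486 and 0.224 CPM. Every LPMC library was below every colon library.

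The transcription factors followed the same library. Pou2f3 (ENSMUSG00000032015; chromosome 9, 43123939 to 43210369, minus strand) measured 0.0966, 0.139 and 0.0860 CPM in colon WT and 0.237, 0.816 and 0.0937 CPM in colon KO. In LPMC WT it measured 0.276, 0.343 and 0.156 CPM, and in LPMC KO 0.116, 0.219 and 0.316 CPM. The 2 materials overlapped, and in LPMC no library stood out. Gfi1b (ENSMUSG00000026815; chromosome 2, 28609450 to 28621982, minus strand), a repressor used by tuft cells and also by erythroid and megakaryocytic cells, measured 0.121, 0.0929 and 0.0287 CPM in colon WT and 0.0646, 0.489 and 0.0669 CPM in colon KO. In LPMC WT it measured 0.105, 0.141 and 0.390 CPM, and in LPMC KO 0.386, 0.316 and 1.05 CPM. The LPMC groups overlapped, and KO replicate 3 was the highest of all libraries. Erythroid marker sums were 4.47 to 41.6 CPM in colon and 351.1 to 1782 CPM in LPMC, and mast cell marker sums were 16.3 to 29.6 CPM in colon and 97.8 to 182.8 CPM in LPMC. Megakaryocyte and platelet marker sums were 8.63 to 25.0 CPM in colon and 16.3 to 57.1 CPM in LPMC. The parts of these cells in the Gfi1b level were not tested.

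The promoter sequences are shown because, among the colon libraries, Trpm5 and Gfi1b were both highest in KO replicate 2 while Avil was lowest there, by a small margin. Each is the 250 bases before the RefSeq start (GRCm38.p6), 5′ to 3′ on the gene's strand. Trpm5 is chr7:143094643-143094892 (minus), Gfi1b is chr2:28621983-28622232 (minus) and Avil is chr10:127000459-127000708 (plus).
Trpm5: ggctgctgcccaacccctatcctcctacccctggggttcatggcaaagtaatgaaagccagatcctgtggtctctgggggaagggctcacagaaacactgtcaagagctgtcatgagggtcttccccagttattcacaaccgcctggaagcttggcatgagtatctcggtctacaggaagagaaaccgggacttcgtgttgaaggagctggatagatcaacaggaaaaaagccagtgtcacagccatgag
Gfi1b: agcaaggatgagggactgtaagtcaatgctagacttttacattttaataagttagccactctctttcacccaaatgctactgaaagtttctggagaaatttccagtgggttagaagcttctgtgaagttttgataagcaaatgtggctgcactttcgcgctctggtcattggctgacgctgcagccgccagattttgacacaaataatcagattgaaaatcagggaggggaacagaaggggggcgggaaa
Avil: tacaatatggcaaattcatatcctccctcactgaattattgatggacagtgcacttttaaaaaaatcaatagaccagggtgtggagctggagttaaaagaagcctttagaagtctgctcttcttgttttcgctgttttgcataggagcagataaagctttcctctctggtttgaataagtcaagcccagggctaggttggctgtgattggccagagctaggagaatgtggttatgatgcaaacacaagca
The octamer ATGCAAAT, the motif of POU factors, was searched on both strands from 250 bases before to 50 after the start, and so was the looser ATGNAAAT, which includes the first. The table matched 7 of the 9 members (Alox5, Avil, Dclk1, Gfi1b, Gng13, Sh2d6 and Trpm5) with 9 windows, while Pou2f3 and Il25 had no entry. No member window held either form, so no base is capitalised. Of all 32851 windows, 1.74% held the octamer and 5.67% the looser form. These letters are not in these windows, and nothing follows from that about binding.

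Il25 (ENSMUSG00000040770; chromosome 14, 54932695 to 54935837, plus strand), the cytokine by which tuft cells reach innate lymphoid cells, was near the limit of detection. It had 4, 2 and 0 counts in colon WT and 4, 6 and 0 in colon KO. In LPMC it had 0, 2 and 0 counts in WT and 0 in each KO library. The 6 colon libraries held 16 counts and the 6 LPMC libraries 2, a difference in mean CPM with p = 0.0606 in a two-sided exact permutation test. No difference between genotypes was detectable at this depth.

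Avil (ENSMUSG00000025432; chromosome 10, 127000709 to 127020994, plus strand) encodes advillin, an actin-bundling protein of the tuft and of sensory neurons. It measured 11.2, 16.3 and 11.9 CPM in colon WT and 11.9, 8.30 and 8.43 CPM in colon KO. The LPMC WT libraries held 2.74, 2.59 and 2.01 CPM, and the LPMC KO libraries 2.79, 2.98 and 3.33 CPM. All colon libraries were above all LPMC libraries, and the 3 LPMC KO libraries lay above the 3 LPMC WT libraries by a small margin. In colon KO replicate 2, where Trpm5 and Sh2d6 were highest, Avil was the lowest of the colon libraries. The margin was small, at 8.30 against 8.43 CPM in KO replicate 3. Its span overlaps Tsfm on the opposite strand by 9423 bases, and Tsfm, at 62.3 ± 15.0 CPM (SD, n = 3) in colon WT, was far more abundant than Avil. Tsfm was also lower in LPMC than in colon, at -0.72 (SE 0.14) on the log2 scale with an edgeR adjusted p of 0.0014, and its part in the Avil count was not tested.

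Dclk1 (ENSMUSG00000027797; chromosome 3, 55242364 to 55539068, plus strand) encodes a microtubule-associated kinase, widely used as a tuft cell marker in mice and also made by neurons. It measured 6.29, 4.23 and 3.87 CPM in colon WT and 5.38, 10.2 and 6.76 CPM in colon KO. Among LPMC libraries, WT measured 12.6, 6.48 and 2.13 CPM, and KO 6.27, 1.35 and 5.49 CPM. The LPMC libraries ranged widely, and WT replicate 3 and KO replicate 2 were the lowest. Those 2 libraries also had the lowest LPMC fibroblast marker sums, 830.0 and 972.8 CPM, against 3137 to 5084 CPM in the other 4. They were also the lowest LPMC libraries for smooth muscle (136.3 and 206.5 CPM), B cell (42.5 and 32.8 CPM) and megakaryocyte and platelet markers (16.3 and 18.1 CPM). In colon the order differed for fibroblasts, since KO replicate 2 had the highest Dclk1 and the lowest fibroblast sum. Its B cell and megakaryocyte and platelet sums were also the lowest there, and its smooth muscle sum the highest. The part of these cell types in the Dclk1 count was not tested.

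Alox5 (ENSMUSG00000025701; chromosome 6, 116410077 to 116461178, minus strand), the first enzyme of leukotriene synthesis, is also made by neutrophils, macrophages and mast cells. It measured 0.604, 0.697 and 0.544 CPM in colon WT and 1.17, 1.73 and 0.763 CPM in colon KO, and these groups did not overlap. In LPMC WT it measured 1.01, 1.34 and 1.52 CPM, and in LPMC KO 2.79, 1.31 and 3.05 CPM. The 2 high LPMC KO libraries, replicates 1 and 3, were also the highest LPMC libraries for monocyte and macrophage markers (402.4 and 490.3 CPM, the others 143.3 to 294.6 CPM) and for neutrophil markers (573.5 and 388.3 CPM, the others 59.6 to 118.7 CPM). In colon KO replicate 2, where Alox5 was highest, both sums were the lowest of the colon libraries. The part of leukocyte RNA in these values was not tested.

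**Figure D2:**
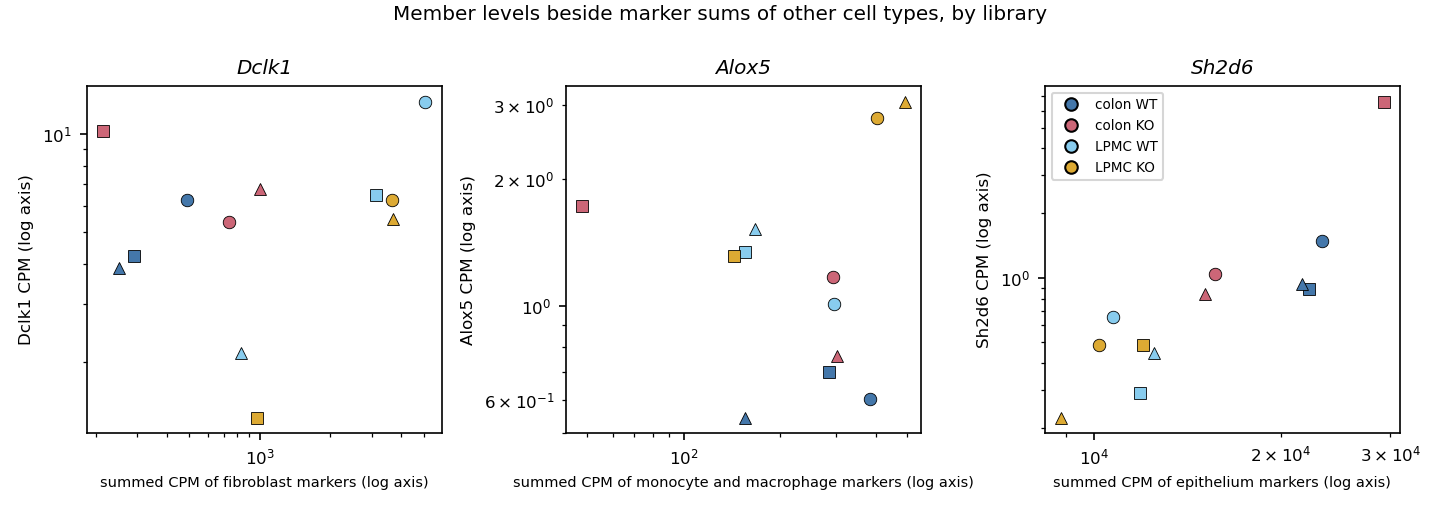
Levels of Dclk1, Alox5 and Sh2d6 (CPM, log axis) in each of the 12 libraries against the summed CPM (log axis) of fibroblast, monocyte and macrophage, or epithelial markers. Colours give the group and symbols the replicate (circle 1, square 2, triangle 3). In LPMC the 2 libraries with low fibroblast sums have the lowest Dclk1, and colon KO replicate 2 has both the highest epithelial sum (29300 CPM) and the highest Sh2d6 (6.59 CPM). Those 2 LPMC libraries also had the lowest smooth muscle, B cell and megakaryocyte and platelet sums, which are not drawn.

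Whether loss of Gpr15l goes with a change of tuft cell genes in the inflamed colon was tested on the 6 colon libraries. None of the 6 members that passed the count filter (a minimum of 10 counts by edgeR's filterByExpr) was called by edgeR's quasi-likelihood test at an adjusted p under 0.05, and 0 had an unadjusted p under 0.05. DESeq2 called 0, with Trpm5 and Alox5 at an unadjusted p under 0.05, and limma voom called 0. Over all genes, edgeR called 0.00518%. Il25, Gfi1b and Gng13 did not pass the filter. Pou2f3 passed it narrowly, with 8, 6 and 6 counts in colon WT and 22, 50 and 14 in colon KO. It failed the filter without colon KO replicate 1 and with counts halved, so its place in the fit depended on libraries where it was high. The log2 fold changes (KO to WT) were 1.80 (SE 0.86) for Pou2f3, 1.38 (SE 0.74) for Trpm5, 1.34 (SE 0.82) for Sh2d6, 0.98 (SE 0.42) for Alox5, 0.62 (SE 0.36) for Dclk1 and -0.47 (SE 0.27) for Avil, with adjusted p between 0.632 and 0.676. Without colon KO replicate 2 the same log2 fold changes were 0.60, 0.04, -0.25, 0.64, 0.32 and -0.38. The positive values of Trpm5 and Sh2d6 therefore rested on that library. Alox5 was the one member whose colon groups did not overlap, against 14.3% of all genes tested.

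In colon KO replicate 2, the 8 members other than Avil were the highest of the 6 colon libraries. The ratios to the median of the other 5 were 17.1 for Gng13, 8.45 for Pou2f3, 7.31 for Gfi1b, 7.08 for Sh2d6, 6.08 for Trpm5, 2.48 for Alox5, 2.27 for Il25 and 1.90 for Dclk1, and 0.701 for Avil. The Gng13 median was 1 count (0.0143 CPM, colon WT replicate 3), under the 3 counts that a count of 0 allows. The size of its ratio is therefore not reliable. Over 20989 genes, 24.8% were highest in that library and 22.6% lowest. Of 29 further tuft cell genes, 11 were highest there and 7 lowest, the latter near the share of all genes. The genes named here beyond the members were chosen after their values were seen. Examples of the highest are Rgs13, a regulator of G protein signalling, at 1.11 CPM, where the remaining colon libraries held 0.0287 to 0.712 CPM, and Chat, the acetylcholine-making enzyme, at 1.91 CPM against 0.374 to 0.883 CPM. The 7 lowest were Ptgs1, Alox5ap, Lrmp, Cd300lf, Vav1, Inpp5d and Fyb, genes that leukocytes also use, with Alox5ap at 1.09 CPM against 1.83 to 5.39 CPM. Of 10 chemosensory cascade genes, 3 were highest there and 3 lowest, both near the shares of all genes and no result about the list. The highest were the G protein subunits Gnat3 (0.489 against 0.161 to 0.315 CPM) and Gnb3 (0.653 against 0.0803 to 0.205 CPM) and the channel Trpm4. The lowest were Plcb2 (1.93 against 2.26 to 19.2 CPM), Plcg2 (5.06 against 8.11 to 49.0 CPM) and Itpr3 (277.9 against 282.1 to 344.5 CPM). Of 15 genes of the type 2 circuit, 3 were highest and 3 lowest, again near the shares of all genes and no result about the list. The highest were Retnlb, a goblet cell product that type 2 cytokines induce (580.1 against 84.8 to 142.2 CPM), Gata3 and Il17rb. The lowest were the alarmin Il33 (4.89 against 8.84 to 51.5 CPM), its receptor Il1rl1 (2.50 against 3.95 to 21.1 CPM) and Il17ra. These are values of a single library with no replicate. The epithelial marker sum there was 29300 CPM and the next highest in colon was 23290 CPM. The parts of the epithelial, neuronal and smooth muscle sums in the tuft cell values were not tested.

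**Figure D3:**
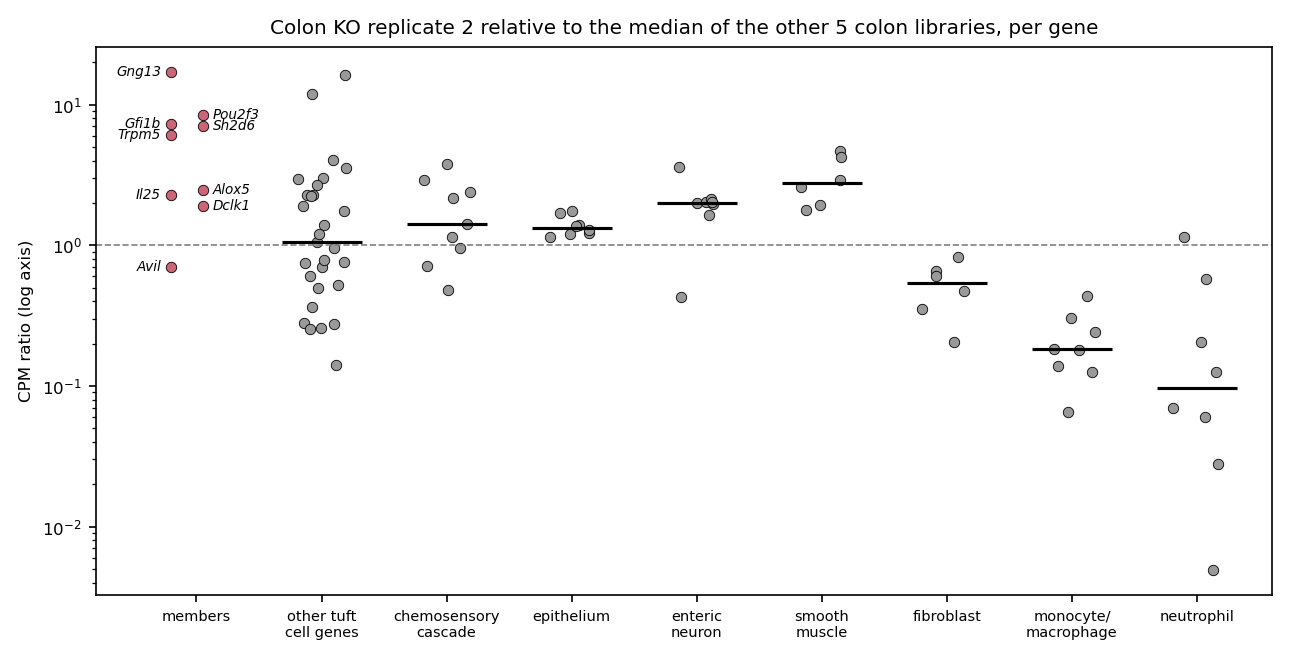
Ratio of CPM in colon KO replicate 2 to the median of the other 5 colon libraries (log axis), one point per gene, for the 9 members and for lists of other tuft cell genes and cell type markers. Horizontal lines are medians of the plotted genes of each list other than the members, the dashed line is a ratio of 1, and genes at 0 are not drawn. Gng13 is at 17.1, over a median of 1 count, and Avil at 0.701, and the monocyte and macrophage genes all lie below 1.

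In LPMC, 0 of 7 tested members were called between KO and WT by edgeR, 0 at an unadjusted p under 0.05. DESeq2 called 0, with Alox5 at an unadjusted p under 0.05, and limma voom called 0. Over all genes, edgeR called 0.0103%. The log2 fold changes were 1.52 (SE 0.73) for Gfi1b, 0.89 (SE 0.39) for Alox5, 0.30 (SE 0.24) for Avil, -0.12 (SE 0.46) for Trpm5, -0.23 (SE 0.47) for Sh2d6, -0.29 (SE 0.54) for Pou2f3 and -0.69 (SE 0.78) for Dclk1, each with an adjusted p of 0.998. Avil was the one member whose LPMC groups did not overlap, against 7.42% of genes tested.

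The difference between the 2 materials in the KO to WT change was tested directly in all 12 libraries. No member of 7 was called by edgeR, and over all genes 0.0% were called. Avil had an unadjusted p of 0.0485 (adjusted p = 0.902), with a KO to WT log2 fold change larger by 0.76 (SE 0.34) in LPMC than in colon. DESeq2 called 0 members, with Avil at an unadjusted p under 0.05, and limma voom called 0. The values for Pou2f3 (-2.10, SE 1.05), Sh2d6 (-1.57, SE 1.02) and Trpm5 (-1.51, SE 0.93) were negative, and without colon KO replicate 2 they were -0.90, 0.02 and -0.17.

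The clearest difference among the members was between materials. In LPMC, Avil measured 2.74 ± 0.44 CPM (SD, n = 6) against 11.3 ± 2.93 CPM in colon, and Sh2d6 measured 0.433 ± 0.155 against 1.96 ± 2.28 CPM. Alox5 was higher in LPMC, at 1.84 ± 0.86 against 0.918 ± 0.455 CPM. With edgeR, 3 of 7 tested members were called, against 50.3% of all genes, so members were not called more often than genes at large. The log2 fold changes, LPMC to colon, were -2.04 (SE 0.18, adjusted p = 1.082e-05) for Avil, -2.02 (SE 0.52, adjusted p = 0.00804) for Sh2d6 and 1.02 (SE 0.29, adjusted p = 0.0118) for Alox5. Avil and Sh2d6 fell without overlap between materials, against 27.7% of genes. Trpm5 (-1.07, SE 0.47, adjusted p = 0.0778), Gfi1b (1.44, SE 0.66, adjusted p = 0.0882), Pou2f3 (0.25, SE 0.52, adjusted p = 0.709) and Dclk1 (-0.11, SE 0.44, adjusted p = 0.861) were not called. Without colon KO replicate 2, Sh2d6 was at -1.25 (edgeR adjusted p = 0.00905), Trpm5 at -0.42 (adjusted p = 0.284) and Gfi1b at 2.20, which was then called (adjusted p = 0.00992). Gfi1b did not pass the count filter in colon alone, with or without that library. Its place in this fit rested on LPMC, where it was higher, so its call was partly set by the filter. Trpm5 was called with DESeq2 (-1.09, adjusted p = 0.0376), and by edgeR without colon KO replicate 1 (-1.27, adjusted p = 0.0439) or replicate 3 (-1.27, adjusted p = 0.0354). In WT libraries alone and in KO libraries alone, only Avil among the members was called, at -2.43 and -1.66. In the same comparison all 8 enteric neuron markers fell, as did 4 of 4 enteric glia and 6 of 8 epithelial markers. Those that rose were 6 of 6 fibroblast, 7 of 8 mast cell, 5 of 6 erythroid and 4 of 4 T cell markers. Of 6 enteroendocrine markers, 4 rose and 1 fell. The part of these cell types in the member values was not tested.

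**Figure D4:**
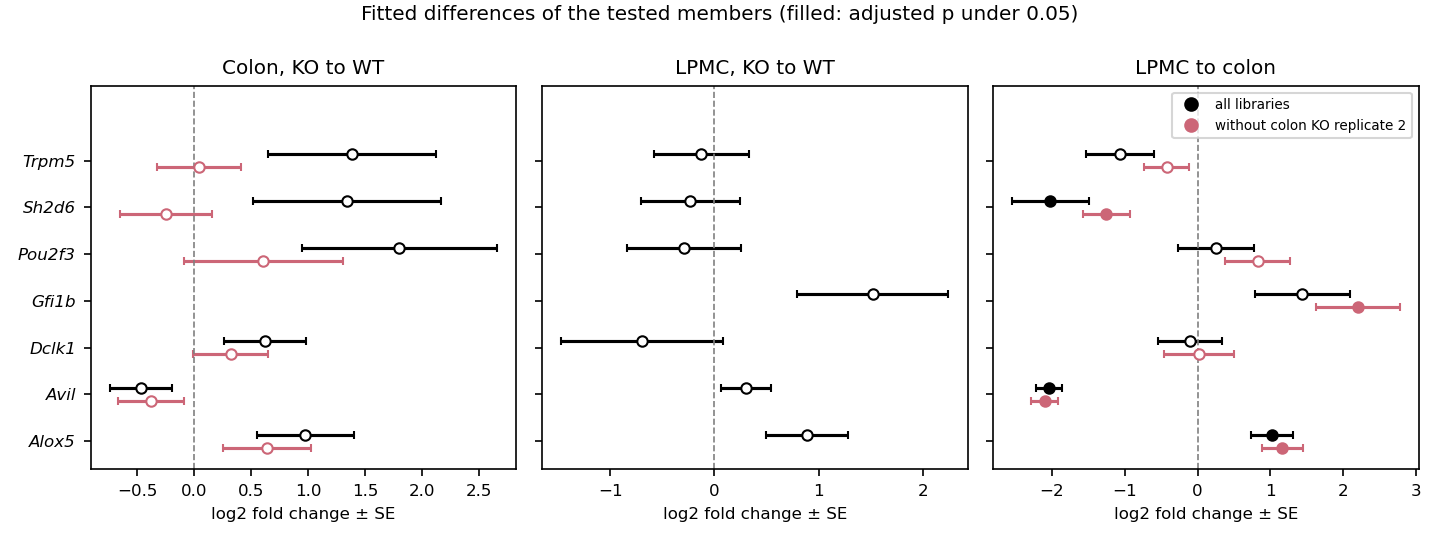
Log2 fold changes with SE of the tested members, with all libraries (black) and without colon KO replicate 2 (red), for KO to WT in colon, KO to WT in LPMC and LPMC to colon. Filled points passed an adjusted p of 0.05 in edgeR. In colon the values of Trpm5 and Sh2d6 move from 1.38 and 1.34 to 0.04 and -0.25 without that library.

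Of 29 further tuft cell genes, 28 were tested, and 8 rose and 7 fell in LPMC relative to colon. This is near the 50.3% called over all genes and is no result about the list. The median log2 fold change was 0.33, against 0.01 over all genes. Those that fell include Chat (-4.20, SE 0.65), the homeobox genes Hmx3 (-3.21, SE 0.72) and Hmx2 (-2.44, SE 0.67), the short-chain fatty acid receptor Ffar3 (-2.33, SE 0.56) and Cwh43 (-2.16, SE 0.24). Chat, Hmx3, Hmx2 and Ffar3 did not pass the count filter in the LPMC libraries alone. Their place in this fit rested on colon, where they were higher, so their falls were partly set by the filter. Chat measured 0.605 ± 0.257 CPM (SD, n = 3) in colon WT and 1.08 ± 0.721 in colon KO, against 0.0254 ± 0.044 in LPMC WT and 0.0612 ± 0.0105 in LPMC KO. Its call held without colon KO replicate 2 (-3.87, edgeR adjusted p = 0.0008024). Those that rose include Nrep (2.38, SE 0.32), Fyb (2.19, SE 0.45), Pik3r5 (2.16, SE 0.40), Inpp5d (2.12, SE 0.59) and Alox5ap (1.88, SE 0.43), of which Fyb, Pik3r5, Inpp5d and Alox5ap are also used by leukocytes. The other 5 called were Bmx (1.37), Il17rb (0.90) and Hpgds (0.74), which rose, and Espn (-1.84) and Strip2 (-0.64), which fell.

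In the chemosensory cascade, 9 of 10 listed genes were tested, and 2 rose and 2 fell in LPMC, again against 50.3% called over all genes. The taste-type subunit Gnat3 fell, from 0.264 ± 0.0877 CPM in colon WT and 0.285 ± 0.179 in colon KO to 0.0254 ± 0.044 in LPMC WT, and it was at 0 in the 3 LPMC KO libraries (edgeR adjusted p = 0.00182). Gnb3 fell by 2.72 (SE 0.97) on the log2 scale at an edgeR adjusted p of 0.0364, a call lost without colon KO replicate 2 (-2.14, adjusted p = 0.0997). Gnat3 and Gnb3 did not pass the count filter in the LPMC libraries alone. Their place in this fit rested on colon, where they were higher, so their falls were partly set by the filter. Itpr2, an inositol trisphosphate receptor, rose by 1.96 (SE 0.42), and Plcg2, a phospholipase abundant in leukocytes, rose by 1.40 (SE 0.46). None of the 9 was called in the WT libraries alone, with 2 at an unadjusted p under 0.05, and 4 of 8 were called in the KO libraries alone.

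The type 2 list holds IL-25 receptor subunits, type 2 cytokines with their receptors and targets, and the related Il33 and Il1rl1. Of 15 listed genes, 14 were tested, and 6 rose and 1 fell in LPMC relative to colon, a share near the 50.3% of all genes, with a median log2 fold change of 0.74. All 4 T cell markers also rose, and their part in these values was not tested. The cytokine Il13 was at 0 in the 3 colon WT libraries and at 0.0116 ± 0.0109 CPM (SD, n = 3) in colon KO, against 0.473 ± 0.166 in LPMC WT and 0.828 ± 0.404 in LPMC KO (edgeR adjusted p = 4.479e-05). Il5, which like Il13 is made by group 2 innate lymphoid cells and T helper type 2 cells, measured 0.726 ± 0.171 CPM in LPMC WT and 1.38 ± 0.604 in LPMC KO, against 0.0121 ± 0.0209 and 0.0139 ± 0.012 in colon WT and KO. Il13 and Il5 did not pass the count filter in the colon libraries alone. Their place in this fit rested on LPMC, where they were higher, so their rises were partly set by the filter. Areg, a growth factor of the epithelium, rose by 2.83 (SE 0.24), Il4 by 1.46 (SE 0.39), Retnlb by 1.40 (SE 0.48) and Il17rb, a subunit of the IL-25 receptor, by 0.90 (SE 0.25) on the log2 scale. Il13ra1, a subunit of the IL-13 receptor, fell by 0.85 (SE 0.15). The ligand Il25 had 16 counts in colon and 2 in LPMC, near the limit of detection (p = 0.0606 in the two-sided exact permutation test). These counts are too few to set against the genes above.

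All 10 leukotriene genes were tested, and 5 rose and 0 fell in LPMC, a share called near the 50.3% of all genes, with a median log2 fold change of 1.08. Beside Alox5 these were its activating protein Alox5ap, the receptors Cysltr2 (2.28, SE 0.29) and Cysltr1 (1.18, SE 0.40) and the lipoxygenase Alox12 (1.27, SE 0.34).

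Between KO and WT, none of these 4 lists had a gene called by edgeR in colon, in LPMC or in the interaction, and DESeq2 and limma voom called 0 as well. At an unadjusted p under 0.05, edgeR had 0 genes of the 4 lists in colon. In LPMC it had 2, Cd300lf (log2 fold change 1.37, SE 0.49, adjusted p = 0.998), a receptor of myeloid and tuft cells, and Arg1 (0.89, SE 0.25, adjusted p = 0.998). In the interaction it had Cd300lf (1.88, SE 0.83, adjusted p = 0.902) and the IL-17 receptor subunit Il17ra (0.78, SE 0.30, adjusted p = 0.902). Over all genes, edgeR had an unadjusted p under 0.05 for 1504 of 19303 in colon and 513 of 19426 in LPMC. In the interaction it was 985 of 20989. The few genes named here are therefore no result about the lists.

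The likeness of other genes to Trpm5 and Pou2f3 was described by Pearson's r of log2 CPM less the group mean, over the 12 libraries, among 20989 genes. The libraries share their normalization, and no test was made. Closest to Trpm5 were Igsf5 (r = 0.989), Prkab1 (0.985), Myo7b, a myosin of the epithelial brush border (0.983), Ppm1b (0.981) and Serpinb1a (0.971). Without colon KO replicate 2 these r values were 0.962, 0.962, 0.944, 0.952 and 0.945. Igsf5 measured 136.4 CPM in that library and 84.4 to 107.6 CPM in the remaining colon libraries. Among the members, Sh2d6 was closest to Trpm5, with r = 0.875 over 12 libraries and 0.541 over 11, and Dclk1 was at -0.20 and -0.75. Closest to Pou2f3 were Dlg2 (0.947), Hs3st2 (0.933), Gpr27 (0.926), Atf5 (0.911) and Oxtr (0.910), and without colon KO replicate 2 these were 0.871, 0.857, 0.817, 0.789 and 0.829. Between Pou2f3 and Trpm5, r was 0.534 over 12 libraries and -0.35 over 11, so their common pattern rested on 1 library.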

How the data were processed

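The study measured RNA in 12 mouse libraries made with a stranded mRNA kit, per the labels' protocols. Per the submitters' processing notes, STAR and the build GRCm38 (mm10) were used. No source used here gives the counting tool or the strand setting. The authors deposited whole-number counts per Ensembl gene with no normalization, and of 54109 identifiers 54042 matched GENCODE M21. Low counts (10 or less) were even in 68.0 to 77.9% of cases, the pattern of mates counted separately, so floors cover counting error only and are too low.

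Counts were tested with edgeR 4.0.16 in R 4.3.3 (TMM, filterByExpr with minimum count 10, robust quasi-likelihood F-test), with Benjamini-Hochberg adjustment over all genes tested and a threshold of 0.05. The KO to WT fits used 6 libraries each, and the interaction and LPMC to colon fits used 12. The SE is the log2 fold change divided by the square root of F. The scripts were run on simulated counts with known changes. The share recovered is not given here, so that run does not tell how large a change the KO to WT fits could find. DESeq2 1.42.0, limma 3.58.1 (voom), DESeq2 size factors, no filter, a replicate block, leaving out each library and, chosen after seeing the data, halved counts were alternatives. Replicates of a group were far from identical (a chi-square of 68.4 to 542.7 per gene), and none was merged.

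Members and lists were chosen with earlier results of these data known. All 9 members are named, with the 4 listed genes of lowest p per comparison at most and any that passed, and the 5 genes most like Trpm5 and Pou2f3.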

Additional observations from a re-analysis of the deposited data

How the results depend on the processing

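No member was called between KO and WT, or in the interaction, under any alternative run. Of 7 tested members, 3 were called between LPMC and colon, 4 with DESeq2 (Trpm5 added), and 3 to 4 when 1 library was left out, with Trpm5 added without colon KO replicate 1 or 3 and Gfi1b without replicate 2. Gfi1b entered that fit through LPMC, where it was higher, and not through colon. With WT libraries alone the count was 1, and with KO libraries alone it was 1, in fits of 6 libraries each.

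Uncalled directions turned in some fits, and the cause was not tested. The Alox5 interaction was 0.0056 with voom, Dclk1 (LPMC to colon) was 0.54 in WT libraries alone, and Pou2f3 was -0.79 in KO libraries alone. With 1 library left out, the log2 fold change ranged in colon from -0.25 to 1.76 for Sh2d6 and from -1.93 to 0.28 for Plcb2. In LPMC it ranged from -1.12 to 0.020 for Dclk1, -0.55 to 0.25 for Trpm5, -0.67 to 0.038 for Pou2f3 and -0.48 to 0.12 for Sh2d6. In the interaction it ranged from -0.51 to 1.80 for Gfi1b, -2.01 to 0.017 for Sh2d6 and -0.35 to 0.24 for Alox5, and for Dclk1 between materials from -0.46 to 0.11.

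Over all genes, DESeq2 called 33 in colon, 34 in LPMC and 3 in the interaction, against 1, 2 and 0 with edgeR. Deviations of same-numbered libraries from their group means had r of 0.13, 0.081 and 0.16 between colon WT and LPMC WT, 0.064, 0.30 and 0.18 between colon KO and LPMC KO, and -0.27 to 0.24 between genotypes. Every r between the 2 materials of the same genotype was positive, but not every one was over 0.1, and the numbers were not taken as pairs. That cut-off cannot settle whether colon and LPMC libraries came from the same mice, which the labels do not state. The replicate block grouped libraries by number and not by known mouse. The LPMC to colon p-values therefore leave out any pairing by mouse, and its effect on them was not tested. With the replicate block the member counts were 0, 0, 0 and 3, and over all genes 0, 0, 0 and 10109 for colon, LPMC, the interaction and LPMC to colon. Members with few counts (Il25, Gng13, and Gfi1b and Pou2f3 in colon) are limited by depth.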
